A study of Homo sapiens with 10 samples.

Results

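ZBED2, a BED-type zinc finger protein, and 6 interferon regulatory factors (IRF1, IRF2, IRF3, IRF5, IRF7 and IRF9) were followed through BEAS2B cells in which miRNA levels had been changed. The 7 genes were taken by symbol from the 52402 gene symbols that each library lists, and all 7 passed the filter on low counts, ZBED2 only through the libraries in which it was high. ZBED2 was chosen by its measured counts, which rose from the floor with the miR-200b-3p mimic and in the mixture, so its levels are given as a description without a test. The interferon regulatory factors were tested against miRcontrol and, in the mixture, against each single treatment.

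BEAS2B cells are an epithelial line from normal human bronchus. They were transfected with Lipofectamine 2000 and received 1 of 5 treatments: a scrambled oligonucleotide (miRcontrol), a mimic of miR-3124-5p, a mimic of miR-200b-3p, an inhibitor of miR-92b, or both mimics and the inhibitor together (the 3-miRNA mixed group). Each single oligonucleotide was used at 50 nM, RNA was taken after 48 h, and the amounts in the mixture were not given in the sources used here. All 5 groups shared the cell line and the transfection reagent, and each group had 2 libraries. The 4 comparisons with miRcontrol share its 2 libraries. Whether the 2 libraries of a group came from separate transfections was not stated, so the p-values measure the spread between these libraries, which may be technical. As these were bulk libraries, fewer cells that express a gene and less RNA of that gene per cell cannot be told apart.

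Interferon regulatory factors are transcription factors that bind interferon-stimulated response elements through a shared DNA-binding domain. In epithelial cells, sensors of foreign nucleic acid activate the kinases TBK1 and IKBKE, which phosphorylate IRF3 and IRF7 and so switch on interferon genes. Secreted interferon then acts through its receptor on STAT proteins, which join IRF9 to form ISGF3, the activator of interferon-stimulated genes. IRF1 drives interferon-γ response genes such as the guanylate-binding proteins and antigen presentation genes, and IRF2 competes with IRF1 for many of the same sites. ZBED2 has been described in pancreatic cancer cells as a repressor that counteracts IRF1 at interferon response genes.

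The mature sequences of the miRNAs are shown because their seeds (bases 2 to 8, in capitals) define which 3′UTRs they can pair with. They were taken from RefSeq (GRCh38.p14). The labels do not name the arm of miR-92b that was inhibited, so both arms are given. The miRNA of the study's serum panel is miR-92b-5p.
hsa-miR-200b-3p: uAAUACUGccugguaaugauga
hsa-miR-3124-5p: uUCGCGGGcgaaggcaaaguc
hsa-miR-92b-3p: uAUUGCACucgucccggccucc
hsa-miR-92b-5p: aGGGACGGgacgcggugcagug
The 4 seeds differ from each other. Perfect 7-base matches to them were searched in 1 3′UTR per gene, that of its longest coding transcript (GRCh38, GENCODE v29). The match to miR-200b-3p, CAGTATT, was held by 15.8% of 18481 3′UTRs, and none of the 7 genes held it. The match to miR-3124-5p, CCCGCGA, was held by 0.638% of 3′UTRs, and that to miR-92b-5p, CCGTCCC, by 3.67%, and again none of the 7 genes held either. The match to miR-92b-3p, GTGCAAT, was held by 10.6% of 3′UTRs and by 1 of the 7 genes, IRF1, which had it once, at base 2287 of 2342, close to the end of its 3′UTR. The IRF1 site (matched bases in capitals) and, for contrast, the first miR-200b-3p match in each of the 2 repressors of epithelial genes that miR-200b is known to target, ZEB1 and ZEB2, read as follows.
IRF1, miR-92b-3p match: gaaatgtggccaGTGCAATaaggaattgaa
ZEB1, miR-200b-3p match: gttttatcttatCAGTATTatcactcttat
ZEB2, miR-200b-3p match: actaccatacatCAGTATTtttattattat
ZEB1 held 6 such matches and ZEB2 held 5. A match describes the letters of a 3′UTR and does not show that the site is used.

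The libraries held 13587666 to 18503890 counts, and normalization factors ranged from 0.985 to 1.02. The labelled cell type was checked against its markers. KRT7, KRT8, KRT18 and VIM were abundant, whereas TP63 and KRT5, markers of basal epithelium, had at most 2 and 9 counts in any library, and CDH1 and EPCAM had at most 3 and 8 counts in miRcontrol. Of 10 immune cell markers, 3 were at 0 in every library, MS4A1 and NKG7 among them, and PTPRC had at most 2 counts, whereas CD68 and CD14 were counted. The 10 immune markers summed to between 18.1 and 42.3 CPM (read counts scaled to normalized library size) across libraries. Of 8 stromal or endothelial markers, DCN was at 0 in every library and 4 others had at most 10 counts, whereas COL1A1 had 107 to 641 counts and PDGFRB 42 to 495 counts. CDH5, an endothelial cadherin, had 1 and 1 counts in miRcontrol, 59 and 44 with the miR-3124-5p mimic and at most 10 elsewhere. The 8 markers summed to 20.9 and 19.2 CPM in miRcontrol, 58.7 and 56.3 CPM with the miR-3124-5p mimic, 40.2 and 40.4 CPM with the miR-200b-3p mimic, 16.0 and 16.0 CPM with the miR-92b inhibitor and 35.6 and 34.2 CPM in the mixture, and the part of this in the results was not tested.

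ZBED2 was nearly silent in 3 of the 5 groups and was counted in all libraries that had received the miR-200b-3p mimic. It had 3 and 0 counts in the 2 miRcontrol libraries, 6 and 2 counts with the miR-3124-5p mimic, and 0 and 0 counts with the miR-92b inhibitor. It had 90 and 92 counts with the miR-200b-3p mimic and 87 and 83 counts in the 3-miRNA mixed group. The 4 libraries with the miR-200b-3p mimic, alone or in the mixture, were all above the other 6, and the ranges did not meet. The lowest of the 4 had 83 counts and the highest of the other 6 had 6 counts.

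On the scale of normalized CPM, ZBED2 reached 6.01 ± 1.02 (SD, n = 2) with the miR-200b-3p mimic and 4.64 ± 0.244 (SD, n = 2) in the 3-miRNA mixed group. In miRcontrol it was 0.0859 ± 0.121 CPM (SD, n = 2) and with the miR-3124-5p mimic 0.261 ± 0.210 CPM (SD, n = 2). Because miRcontrol lay at the floor, folds were taken against 3 counts per miRcontrol library, the highest count found there. On that footing ZBED2 was 34.3-fold higher with the miR-200b-3p mimic and 26.4-fold higher in the mixture. Against 3 counts per library of the miR-92b inhibitor group, in which a count of 0 was found, the folds were 35.4 and 27.3. These folds leave out counting error and are not lower limits in that sense. The mixture had 0.772 of the CPM of the miR-200b-3p mimic alone, a log2 difference of -0.37. The libraries of these groups did not overlap, at 5.29 and 6.73 CPM with the mimic and 4.47 and 4.81 CPM in the mixture.

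**Figure D1:**
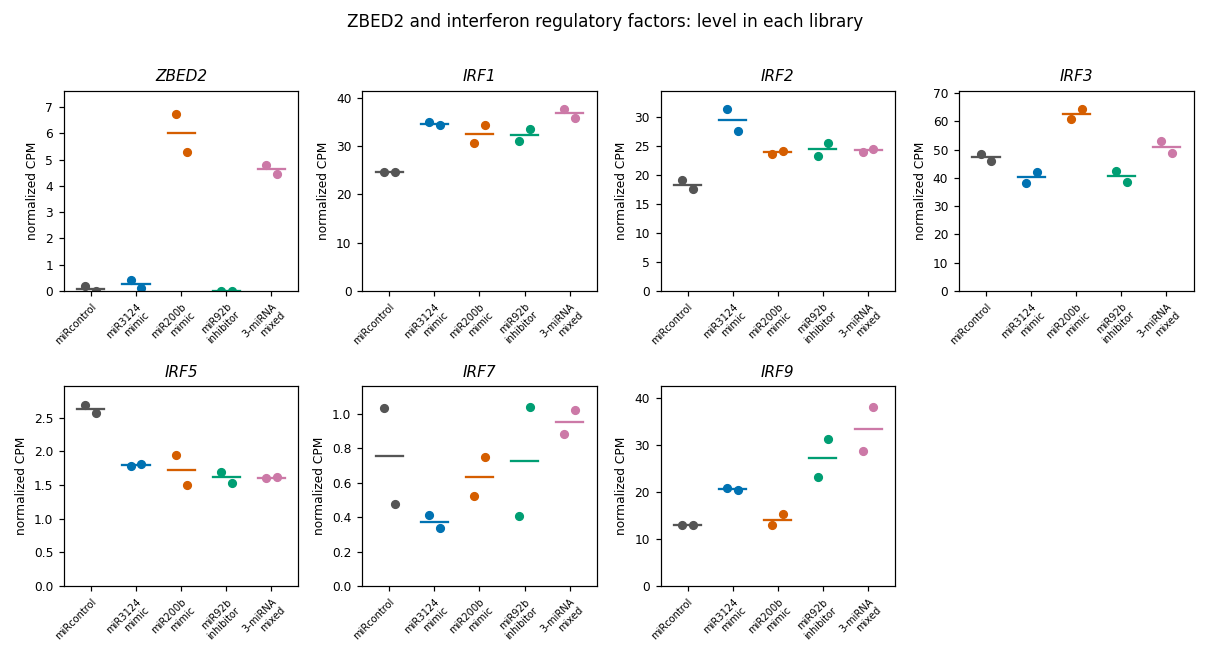
Level of ZBED2 and the 6 interferon regulatory factors in each library. Each panel is 1 gene, the vertical axis is normalized CPM starting at 0, points are the 2 libraries of a group and lines are their means. ZBED2 lay between 4.47 and 6.73 CPM in the 4 libraries with the miR-200b-3p mimic and at most at 0.410 CPM in the other 6, whereas IRF1 was above both miRcontrol libraries in all 8 libraries of the other 4 groups.

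ZBED2 lies on the minus strand of chromosome 3 (GRCh38, chr3:111592900-111595443), wholly within 1 intron of CD96, a lymphocyte receptor gene on the opposite strand (chr3:111292719-111665750). None of the 20 merged CD96 exons overlaps it. CD96 itself had between 1 and 4 counts per library, with 4 and 2 in the miR-200b-3p mimic group and 2 and 3 in the mixture. The host gene therefore stayed near the floor in the libraries where ZBED2 had 83 to 92 counts. Whether the counting used strand was not given in the sources used here.

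The known targets of miR-200b moved in the same libraries. ZEB1, a repressor of epithelial genes, stood at 63.3 and 62.9 CPM in miRcontrol, 25.9 and 25.6 CPM with the miR-200b-3p mimic and 29.7 and 28.5 CPM in the mixture. ZEB2 stood at 33.8 and 30.8 CPM in miRcontrol, 6.95 and 6.44 CPM with the mimic and 10.3 and 10.1 CPM in the mixture. Both repressors were lower in the 4 libraries with the miR-200b-3p mimic than in the other 6, without overlap. CDH1, the cell adhesion protein E-cadherin, had 3 and 2 counts in miRcontrol, 146 and 157 with the mimic and 46 and 36 in the mixture. EPCAM, an epithelial adhesion molecule, had 8 and 2 counts in miRcontrol, 137 and 175 with the mimic and 103 and 98 in the mixture. As for ZBED2, the mixture held less CDH1 and EPCAM, as normalized CPM, than the mimic alone. Not every epithelial marker kept this pattern. KRT19, a keratin, stood at 8.47 and 7.94 CPM in miRcontrol, 13.8 and 15.1 CPM with the mimic and 2.49 and 2.74 CPM in the mixture. Of the 7 line markers tested, 5 were called higher in the mixture and 2 lower, KRT19 and VIM (21.5% and 21.1% of all genes).

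By correlation of log2 CPM over the 10 libraries, the 5 genes whose pattern was most like that of ZBED2 were PICK1 (r = 0.990), EPCAM (r = 0.989), SPINT2 (r = 0.987), KRT7 (r = 0.987) and USP53 (r = 0.983), out of 12899 genes compared. These coefficients are descriptions over 10 libraries that fall into 2 clusters, those with and those without the miR-200b-3p mimic, and they share libraries and depth. With a smaller prior count of 0.5, PICK1 and EPCAM stayed first and PLEKHG3, FAM126B and COBL took the next places. SPINT2, an inhibitor of epithelial serine proteases, rose from 17.5 and 15.5 CPM in miRcontrol to 130 and 134 CPM with the mimic and 96.7 and 95.0 CPM in the mixture (log2 fold changes of 2.99 and 2.53). KRT7, a keratin of simple epithelia, rose by 0.96 ± 0.04 and 0.88 ± 0.04 (log2, SE).

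**Figure D2:**
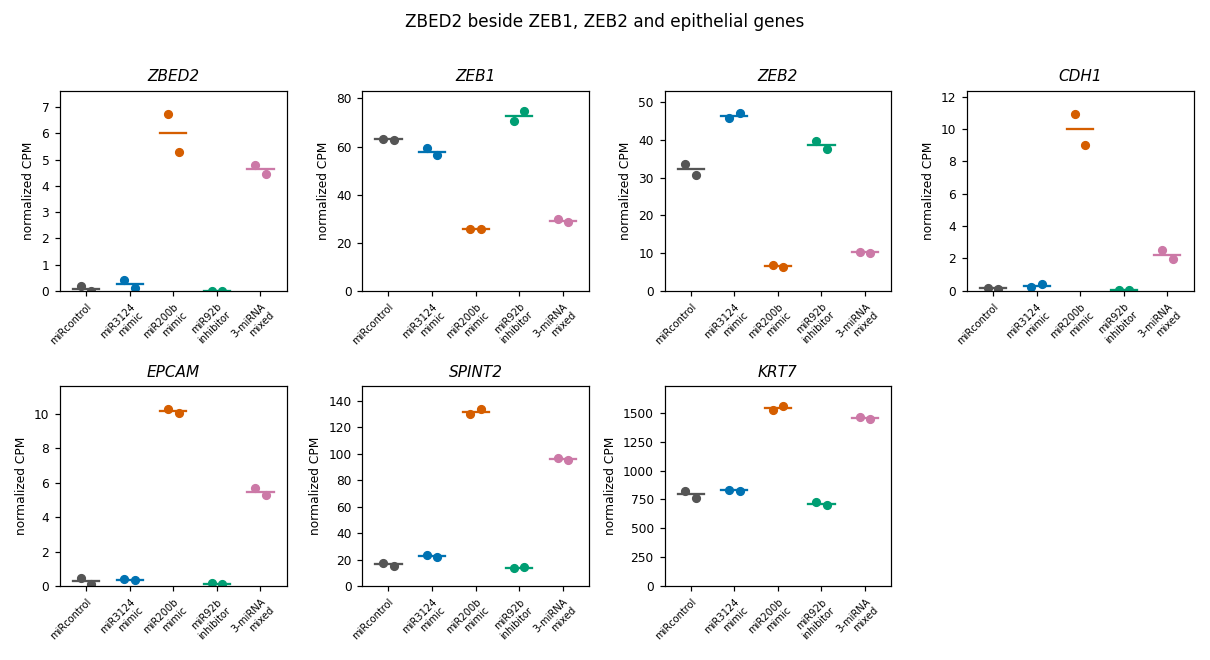
ZBED2 beside ZEB1, ZEB2 and 4 epithelial genes, in normalized CPM (vertical axes from 0). Points are libraries and lines are group means. ZEB1 and ZEB2 were lowest and the other genes shown highest in the groups with the miR-200b-3p mimic. KRT19, not shown, was below miRcontrol in the mixture. CDH1 fell short of its level with the mimic alone in the mixture (2.54 and 1.94 CPM against 10.9 and 9.03 CPM).

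The 8 other ZBED genes in the files were looked at for comparison. ZBED1, whose symbol has 2 rows, was listed at 0 in every library, and 7 were tested. With the miR-200b-3p mimic 1 of 7 was called (40.6% of all genes tested were), ZBED6, which fell by 0.20 on the log2 scale, and in the mixture 2 of 7 were called (42.7% of all genes), ZBED4 (log2 fold change -0.30) and ZBED5 (log2 fold change 0.26). With the miR-3124-5p mimic 5 of 7 were called, of which 2 rose and 3 fell (51.0% of all genes), and with the miR-92b inhibitor 2 of 7 were called (35.7% of all genes). The highest level of any ZBED gene in miRcontrol was that of ZBED4, at 51.5 and 53.5 CPM.

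The interferon regulatory factors were compared with miRcontrol with edgeR's quasi-likelihood test over 14884 genes, and a gene was called at a Benjamini-Hochberg adjusted p under 0.05. With the miR-3124-5p mimic 4 of 6 were called, 3 higher and 1 lower, where 51.0% of all genes tested were called. With the miR-200b-3p mimic 3 of 6 were called, all higher, where 40.6% of all genes were called. With the miR-92b inhibitor 4 of 6 were called, 3 higher and 1 lower, against 35.7% of all genes, and in the 3-miRNA mixed group 4 of 6 were called, 3 higher and 1 lower, against 42.7% of all genes. Of all genes tested, 25.7%, 21.4%, 17.5% and 21.5% were higher and 25.3%, 19.1%, 18.2% and 21.1% lower in the same order. With only 6 genes, these counts are too few to judge against the shares, and the difference was not tested. The medians of the 6 log2 fold changes were 0.13, 0.26, 0.17 and 0.37 in the same order, and the median over all genes lay within 0.01 of 0 in each comparison. At the study's rule, a fold change of 2 or more together with p under 0.05 before adjustment, only IRF9 was called, with the miR-92b inhibitor (2.63% of all genes) and in the mixture (5.42% of all genes). IRF7 passed the fold but not the p with the miR-3124-5p mimic. That rule called none of the 6 by edgeR with the miR-3124-5p mimic (8.81% of all genes) or with the miR-200b-3p mimic (5.70% of all genes).

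**Figure D3:**
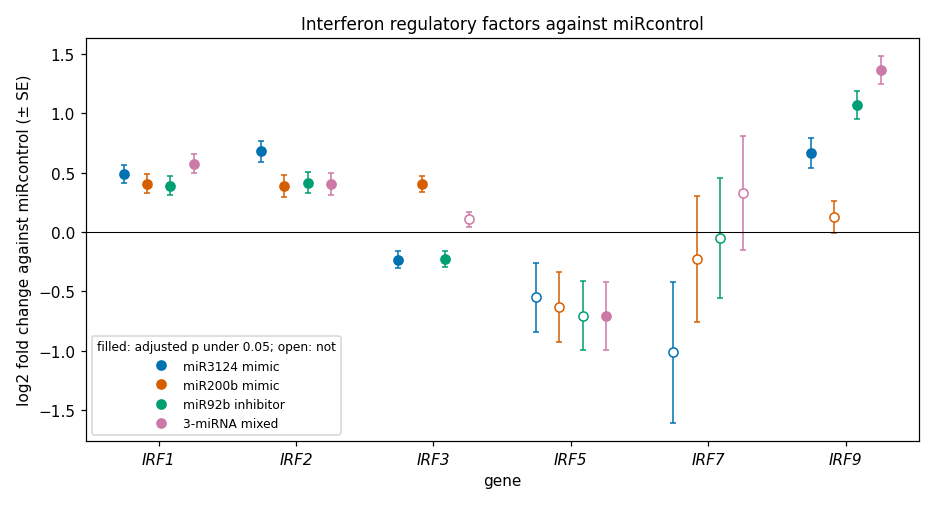
Log2 fold change of the 6 interferon regulatory factors against miRcontrol in each of the 4 other groups, from edgeR. Bars are 1 standard error either way, filled points have an adjusted p under 0.05 and open points do not. IRF1 and IRF2 were higher in all 4 groups, IRF9 was highest in the 3-miRNA mixed group (1.36), and the bars of IRF5 and IRF7 were the widest.

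IRF3, which is made constitutively and is activated after infection, had the highest level of the 7 genes per length. In miRcontrol it stood at 27.1 CPM per kb of its longest coding transcript, followed by IRF2 at 7.96, IRF9 at 7.09 and IRF1 at 6.90 CPM per kb. IRF5 at 0.880, IRF7 at 0.368 and ZBED2 at 0.0372 CPM per kb were far lower. With the miR-200b-3p mimic ZBED2 reached 2.60 CPM per kb, above IRF5 (0.576 CPM per kb) and below IRF9.

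IRF1 (chr5:132481609-132490798, minus strand) was higher than miRcontrol in all 4 groups. It stood at 24.7 and 24.7 CPM in miRcontrol, 35.0 and 34.3 CPM with the miR-3124-5p mimic and 30.7 and 34.5 CPM with the miR-200b-3p mimic. It stood at 31.1 and 33.5 CPM with the miR-92b inhibitor and 37.8 and 35.9 CPM in the mixture. All 8 libraries of these groups lay above both miRcontrol libraries, the miR-200b-3p mimic overlapped both other single treatments, and the mixture lay above all of them. The log2 fold changes were 0.49 ± 0.08 (SE, adjusted p = 9.24e-07) with the miR-3124-5p mimic, 0.41 ± 0.08 (adjusted p = 4.60e-05) with the miR-200b-3p mimic, 0.39 ± 0.08 (adjusted p = 9.57e-05) with the miR-92b inhibitor and 0.58 ± 0.08 (adjusted p = 2.20e-08) in the mixture (edgeR). C5orf56, a noncoding gene that overlaps IRF1 on the opposite strand, was at 1.46 CPM in miRcontrol and was not called in any of the 4.

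IRF2 (chr4:184387713-184474580, minus strand), the competitor of IRF1, was also higher in all 4 groups, with its highest level under the miR-3124-5p mimic. It stood at 19.1 and 17.6 CPM in miRcontrol, 31.3 and 27.7 CPM with the miR-3124-5p mimic and 23.7 and 24.2 CPM with the miR-200b-3p mimic. With the miR-92b inhibitor it stood at 23.3 and 25.6 CPM and in the mixture at 24.1 and 24.5 CPM. The last 3 groups overlapped, and all were above miRcontrol and below the miR-3124-5p mimic. The log2 fold change was 0.68 ± 0.09 (adjusted p = 9.76e-09, edgeR) with the miR-3124-5p mimic and between 0.39 and 0.42 in the other 3 groups, all called. Of the 3 IRF2-binding corepressor genes, IRF2BP1 fell by 0.88 ± 0.09 (log2, SE) with the miR-3124-5p mimic, by 0.36 ± 0.09 with the miR-200b-3p mimic and by 0.69 ± 0.09 in the mixture. With the miR-92b inhibitor its log2 fold change was -0.03 and was not called. IRF2BP2 fell by 0.27, 0.14 and 0.19 on the log2 scale in the same 3 groups and rose with the miR-92b inhibitor (0.14 ± 0.05, adjusted p = 0.0173, edgeR). IRF2BPL rose with the miR-3124-5p mimic (0.28 ± 0.08, adjusted p = 0.00227, edgeR) and was not called in the other groups (log2 fold changes of -0.10, -0.10 and -0.11).

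IRF3 (chr19:49659569-49665875, minus strand) moved in opposite directions among the treatments. It stood at 48.5 and 46.0 CPM in miRcontrol, 38.2 and 42.1 CPM with the miR-3124-5p mimic and 42.5 and 38.5 CPM with the miR-92b inhibitor. It was higher with the miR-200b-3p mimic, at 60.6 and 64.3 CPM, and stood at 53.0 and 48.8 CPM in the mixture. The miR-3124-5p mimic and miR-92b inhibitor groups overlapped each other, and no other neighbouring groups did. The log2 fold changes were -0.23 ± 0.07 (adjusted p = 0.00422), 0.41 ± 0.07 (adjusted p = 1.14e-06) and -0.22 ± 0.07 (adjusted p = 0.00737) for miR-3124-5p, miR-200b-3p and miR-92b in turn, and 0.11 ± 0.07 (adjusted p = 0.200) in the mixture, where it was not called (edgeR). The 2 falls depended on single libraries. Without miRcontrol replicate 1 their adjusted p was 0.0626 (miR-3124-5p mimic) and 0.0997 (miR-92b inhibitor), without miR-3124-5p mimic replicate 1 it was 0.0936, and without miR-92b inhibitor replicate 2 it was 0.189 (edgeR).

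BCL2L12 overlaps IRF3 on the opposite strand and had 44.4 CPM in miRcontrol. Its log2 fold change was -0.25 ± 0.07 with the miR-3124-5p mimic, 0.22 ± 0.06 with the miR-200b-3p mimic, -0.07 ± 0.06 with the miR-92b inhibitor and 0.04 ± 0.06 in the mixture, of which the first and the second passed the test. Without stated use of strand, reads from the shared stretch cannot be told apart, and their part in the IRF3 values was not tested.

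IRF5 (chr7:128937612-128950035, plus strand), best known from myeloid cells, was counted at 26 to 47 counts per library. It stood at 2.69 and 2.57 CPM in miRcontrol and at most at 1.94 CPM in the 8 libraries of the other groups. All 8 lay below both miRcontrol libraries. The miR-200b-3p mimic overlapped every other treated group. The mixture overlapped the miR-92b inhibitor, and the miR-3124-5p mimic lay above both. The log2 fold changes were -0.55 ± 0.29 (adjusted p = 0.110), -0.63 ± 0.30 (adjusted p = 0.0850), -0.70 ± 0.29 (adjusted p = 0.0518) and -0.71 ± 0.29 (adjusted p = 0.0425) for miR-3124-5p, miR-200b-3p, miR-92b and the mixture in turn (edgeR). The call in the mixture ended when either miRcontrol library or either mixture library was left out (adjusted p between 0.100 and 0.151) and with DESeq2 (adjusted p = 0.154).

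IRF7 (chr11:612553-615999, minus strand), the interferon-inducible regulator that amplifies interferon production, was near the limit of detection. Its symbol has 2 rows in each file, which were summed to 18 and 8 counts in miRcontrol, 6 and 6 with the miR-3124-5p mimic, 7 and 13 with the miR-200b-3p mimic, 7 and 19 with the miR-92b inhibitor and 16 and 19 in the mixture. The miR-3124-5p mimic lay below miRcontrol, the miR-200b-3p mimic and the mixture in CPM and overlapped the miR-92b inhibitor, and most other groups overlapped. No comparison with miRcontrol called IRF7, with log2 fold changes from -1.01 ± 0.59 to 0.33 ± 0.48. More than 1 row was also listed for 15 genes of the lists used here, and 6 of these, among them PSMB8, PSMB9, TAP1 and TAP2, were listed at 0 in every library. Whether IRF7 or these genes lost reads because of their repeated rows was not tested.

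IRF9 (chr14:24161053-24166565, plus strand), the DNA-binding subunit of ISGF3, had the largest called change of the 6. It stood at 13.0 and 13.1 CPM in miRcontrol, 12.9 and 15.3 CPM with the miR-200b-3p mimic and 21.0 and 20.4 CPM with the miR-3124-5p mimic. It rose to 23.2 and 31.4 CPM with the miR-92b inhibitor and to 28.9 and 38.2 CPM in the mixture. The miR-200b-3p mimic overlapped miRcontrol and the mixture overlapped the miR-92b inhibitor, while the miR-3124-5p mimic stood between these pairs. The log2 fold changes were 0.66 ± 0.13 (adjusted p = 1.60e-05) with the miR-3124-5p mimic, 0.13 ± 0.14 (adjusted p = 0.492) with the miR-200b-3p mimic, 1.07 ± 0.12 (adjusted p = 4.96e-10) with the miR-92b inhibitor and 1.36 ± 0.12 (adjusted p = 6.44e-14) in the mixture (edgeR). In both of the last groups replicate 2 was higher than replicate 1, by 1.35 and 1.32 times, and without replicate 2 the log2 fold changes were 0.84 and 1.15, both still called. AL136295.5, a gene model that spans IRF9 on the same strand, shares sequence with it, so reads of the 2 cannot be told apart.

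The mixture was next compared with each single treatment, which shows where the 3 oligonucleotides together gave another level than 1 alone. Against the miR-3124-5p mimic 4 of 6 factors were called (49.1% of all genes). IRF3 (log2 fold change 0.34), IRF7 (1.34) and IRF9 (0.70) were higher in the mixture, where 25.3% of all genes were higher, and IRF2 (-0.28) was lower, where 23.8% were lower. Of these, IRF7 lost its call without either library of either group (adjusted p up to 0.194) and with DESeq2, and IRF2 lost its call without miR-3124-5p mimic replicate 1 (adjusted p = 0.149, edgeR). Against the miR-200b-3p mimic 2 of 6 were called (38.6% of all genes), IRF9 (1.24) higher (18.2% of all genes) and IRF3 (-0.30) lower (20.4% of all genes). IRF1 was not called in either of these comparisons.

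Against the miR-92b inhibitor 3 of 6 were called (39.6% of all genes), namely IRF1 (0.19), IRF3 (0.33) and IRF9 (0.29), all higher in the mixture, where 19.7% of all genes were higher and 19.9% lower. The IRF9 libraries of these groups overlapped, and its adjusted p went from 0.0179 to 0.572 without miR-92b inhibitor replicate 1, to 0.695 without mixture replicate 2 and to 0.292 with DESeq2. IRF1 had an adjusted p of 0.0372, which became 0.270 without miR-92b inhibitor replicate 1, 0.223 without mixture replicate 1, 0.0554 without mixture replicate 2, 0.0775 with no filter on low counts and 0.146 with DESeq2. IRF3 stayed called under all alternatives run.

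Among interferon regulatory factors outside the 6, IRF8, a lymphoid and myeloid factor, rose with the miR-3124-5p mimic, from 8 and 7 counts in miRcontrol to 29 and 25 counts (log2 fold change 1.92 ± 0.51, adjusted p = 0.00126, edgeR), and was not called in the other comparisons with miRcontrol. In the same group CD14, a monocyte marker, had 186 and 219 counts against 14 and 24 in miRcontrol, while PTPRC, which marks all leukocytes, was at 0 in both libraries. IRF4, also lymphoid, had at most 2 counts in any library and was not tested.

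Upstream of the factors, 21 of 25 sensor, adaptor and kinase genes were tested. With the miR-200b-3p mimic 12 were higher and 1 lower, where 21.4% of all genes were higher and 19.1% lower. With the miR-3124-5p mimic the balance was turned, with 6 higher and 10 lower (25.7% and 25.3% of all genes), while the miR-92b inhibitor gave 3 and 3 (17.5% and 18.2% of all genes) and the mixture 8 and 5 (21.5% and 21.1% of all genes). The medians of their log2 fold changes were 0.31, -0.14, 0.06 and 0.07 in this order. TLR2, a receptor for bacterial lipoproteins, rose by 1.17 ± 0.22 (log2, SE) with the miR-200b-3p mimic and 1.67 ± 0.20 in the mixture. It also rose with the miR-3124-5p mimic, by 0.93 ± 0.23. IFIH1, a sensor of double-stranded RNA, rose from 1.89 and 2.03 CPM to 3.89 and 3.97 CPM with the miR-200b-3p mimic and to 3.10 and 5.22 CPM in the mixture. TBK1, the kinase of IRF3, rose with the miR-92b inhibitor (0.28 ± 0.07), and IRAK1, a kinase of Toll-like receptor signalling, fell by 0.62 ± 0.04 with the miR-3124-5p mimic. The largest called fall of the list was that of TICAM2, a Toll-like receptor adaptor, which had 9.67 and 15.2 CPM in miRcontrol. It fell by 1.80 ± 0.23 with the miR-3124-5p mimic, by 0.66 ± 0.19 with the miR-92b inhibitor and by 1.75 ± 0.22 in the mixture, and it shares exons with the read-through gene TMED7-TICAM2, so its counts are uncertain. IKBKB, a kinase of NF-κB signalling, fell by 0.62 ± 0.07 with the miR-200b-3p mimic and by 0.60 ± 0.06 in the mixture.

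Interferon genes themselves were nearly absent. Of 22 interferon genes, 17, among them IFNB1, IFNL1 and IFNG, were at 0 in every library and 21 had at most 3 counts in any library. IFNE, an epithelial type I interferon, was the exception with 13 to 25 counts per library, and it was not called in any comparison by edgeR, also not at an unadjusted p under 0.05. A count of 0 allows up to 3 counts per library, that is 0.164 to 0.198 CPM as group means, so that lower levels were not detectable at this depth.

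All 19 receptor and JAK-STAT genes were tested. Higher and lower calls numbered 8 and 4 with the miR-3124-5p mimic, 5 and 4 with the miR-200b-3p mimic, 3 and 3 with the miR-92b inhibitor, and 7 and 4 in the mixture. Of all genes tested, 25.7% were higher and 25.3% lower, 21.4% and 19.1%, 17.5% and 18.2%, and 21.5% and 21.1% in the same order, and the counts with the miR-200b-3p mimic and the miR-92b inhibitor lie near these shares. Their median log2 fold changes were 0.16, 0.04, 0.01 and 0.01. STAT2, a partner of IRF9 in ISGF3, was called in 2 of the 3 groups where IRF9 was called, with 0.29 ± 0.06 for the miR-3124-5p mimic and 0.30 ± 0.06 for the mixture, while its value with the miR-92b inhibitor was 0.01 ± 0.06. SOCS3, a feedback inhibitor of cytokine signalling, rose by 0.97 ± 0.08 with the miR-3124-5p mimic. TYK2, a kinase of the type I interferon receptor, fell by 0.43 ± 0.05 with the miR-3124-5p mimic, by 0.38 ± 0.05 with the miR-92b inhibitor and by 0.51 ± 0.05 in the mixture. IFNLR1, a chain of the interferon-λ receptor, fell by 0.90 ± 0.19 with the miR-3124-5p mimic and rose by 0.92 ± 0.15 with the miR-200b-3p mimic.

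**Figure D4:**
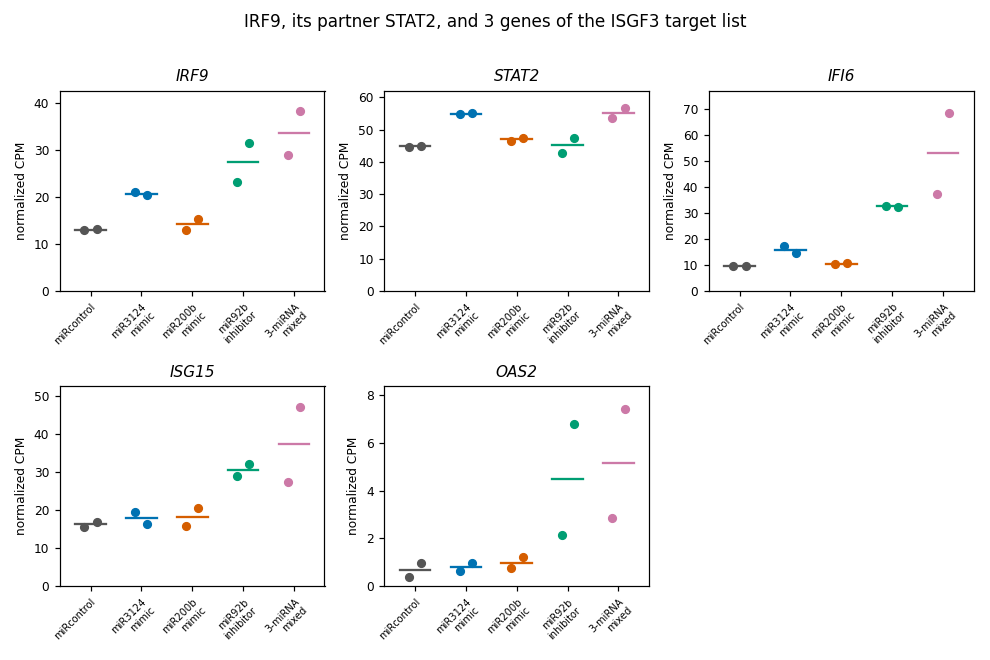
IRF9, STAT2 and 3 interferon-stimulated genes in each library, in normalized CPM (vertical axes from 0, points are libraries, lines are group means). IFI6 and OAS2 were highest in the miR-92b inhibitor and 3-miRNA mixed groups, and replicate 2 of the mixed group was the highest library for all 5 genes.

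Among known targets of ISGF3, 33 of 37 genes were tested. With the miR-92b inhibitor 15 were higher and 0 lower by edgeR (20 and 0 at an unadjusted p under 0.05, and 9 and 0 by DESeq2). Of all genes tested, 17.5% were higher and 18.2% lower there by edgeR, and 21.1% and 22.3% were at an unadjusted p under 0.05. DESeq2 called 31.3% of the genes it gave an adjusted p, in either direction, and 48.4% of those called were higher. In the mixture 20 were higher and 5 lower (21.5% and 21.1% of all genes), and with the miR-3124-5p mimic 12 were higher and 3 lower (25.7% and 25.3% of all genes). With the miR-200b-3p mimic 7 were higher and 5 lower, near the shares of all genes (21.4% and 19.1%). By DESeq2 7 were called, where 33.1% of the genes given an adjusted p were. Fewer were also called without miRcontrol replicate 1, where fewer of all genes were called too. The medians of the log2 fold changes were 0.39, 0.59, 0.29 and 0.15 in this order. At least 2-fold rises were found for 7 genes with the miR-92b inhibitor (1.24% of all genes) and for 10 in the mixture (3.55% of all genes). IFI6, an interferon-induced membrane protein, stood at 9.39 and 9.49 CPM in miRcontrol, 32.7 and 32.5 CPM with the miR-92b inhibitor and 37.5 and 68.6 CPM in the mixture (log2 fold changes 1.79 ± 0.16 and 2.49 ± 0.15). OAS2, a sensor enzyme for double-stranded RNA, stood at 0.401 and 0.955 CPM in miRcontrol, 2.16 and 6.79 CPM with the miR-92b inhibitor and 2.88 and 7.43 CPM in the mixture. All libraries of both groups were above miRcontrol for these genes, and for OAS2 replicate 2 was well above replicate 1 in both.

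Replicate 2 stood apart from replicate 1 over the whole list in the mixture. The summed level of the 37 genes was 1123 and 1103 CPM in miRcontrol, 1246 and 1300 CPM with the miR-92b inhibitor, and 1194 and 1461 CPM in the mixture. Without replicate 2 of the miR-92b inhibitor group fewer genes of the list were called, all of them higher. Their number then lay near the share of all genes called in either direction. That share counts higher and lower calls together, whereas the list calls were all higher. Without replicate 2 of the mixture fewer were called too, more of them higher than lower. Their number stayed above the share of all genes called. With the miR-200b-3p mimic IFIT1, an inhibitor of viral translation, fell by 0.80 ± 0.16 and TRIM22 fell by 0.70 ± 0.23, whereas PARP12 rose by 0.71 ± 0.08. With the miR-3124-5p mimic SAMD9 fell by 0.59 ± 0.06 and IFITM2, an inhibitor of viral entry, fell by 0.58 ± 0.07. ISG20, an antiviral exonuclease, rose by 1.45 ± 0.19 with the miR-3124-5p mimic and 0.79 ± 0.21 with the miR-200b-3p mimic.

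Among 38 genes of the IRF1 and interferon-γ response, 26 were tested. Higher and lower calls numbered 18 and 2 with the miR-3124-5p mimic, 12 and 0 with the miR-200b-3p mimic, 9 and 2 with the miR-92b inhibitor, and 17 and 0 in the mixture. Of all genes tested, 25.7% were higher and 25.3% lower, 21.4% and 19.1%, 17.5% and 18.2%, and 21.5% and 21.1% in the same order. No alternative run called more of the list genes in any group, and some called fewer. The lowest totals with the miR-92b inhibitor came without either miRcontrol library or without miR-92b inhibitor replicate 2. They lay near the shares of all genes called in those fits. Those shares count higher and lower calls together, whereas most of the list calls were higher. The median log2 fold changes were 0.48, 0.28, 0.16 and 0.40. GBP3, a guanylate-binding protein, stood at 26.0 and 24.8 CPM in miRcontrol and at 67.3 and 62.0 CPM with the miR-200b-3p mimic, a rise of 1.34 ± 0.07, and at 68.2 and 73.0 CPM in the mixture, a rise of 1.48 ± 0.07. Any relation of these calls to ZBED2 was not tested, and the most list genes were higher with the miR-3124-5p mimic (18), where ZBED2 was nearly silent. The miR-200b-3p mimic and the mixture had 12 and 17 list genes higher and 0 lower by edgeR. They had 13 and 18 higher and 0 lower at an unadjusted p under 0.05, and 10 and 13 higher and 0 lower by DESeq2. At an unadjusted p under 0.05, 24.4% and 24.6% of all genes were higher and 22.9% and 24.3% lower in these 2 groups. DESeq2 called 33.1% and 36.5% of the genes it gave an adjusted p, in either direction. Of those called, 54.1% and 50.7% were higher.

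GBP1, another member of that family, rose by 0.70 ± 0.08 with the miR-200b-3p mimic, by 0.94 ± 0.07 with the miR-3124-5p mimic and by 0.69 ± 0.07 in the mixture, and fell by 0.34 ± 0.08 with the miR-92b inhibitor. IL15, a lymphocyte growth factor, rose by 1.35 ± 0.31 with the miR-200b-3p mimic. APOL3 rose by 2.27 ± 0.28 with the miR-3124-5p mimic and 1.57 ± 0.30 in the mixture, and CIITA, the activator of MHC class II genes, rose by 1.70 ± 0.44 and 1.33 ± 0.46 with the miR-3124-5p mimic and the miR-92b inhibitor. Of the 2 genes lower with the miR-3124-5p mimic, TAPBP, a chaperone of MHC class I loading, went from 33 and 54 counts in miRcontrol to 4 and 10 counts and fell by 2.54 ± 0.42 on the log2 scale, and PSMB10, an immunoproteasome subunit, fell by 0.69 ± 0.14. Guanylate-binding proteins have near-identical copies and the MHC genes TAPBP, HLA-B and HLA-C have 5 to 7 rows per file, so their counts are uncertain.

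**Figure D5:**
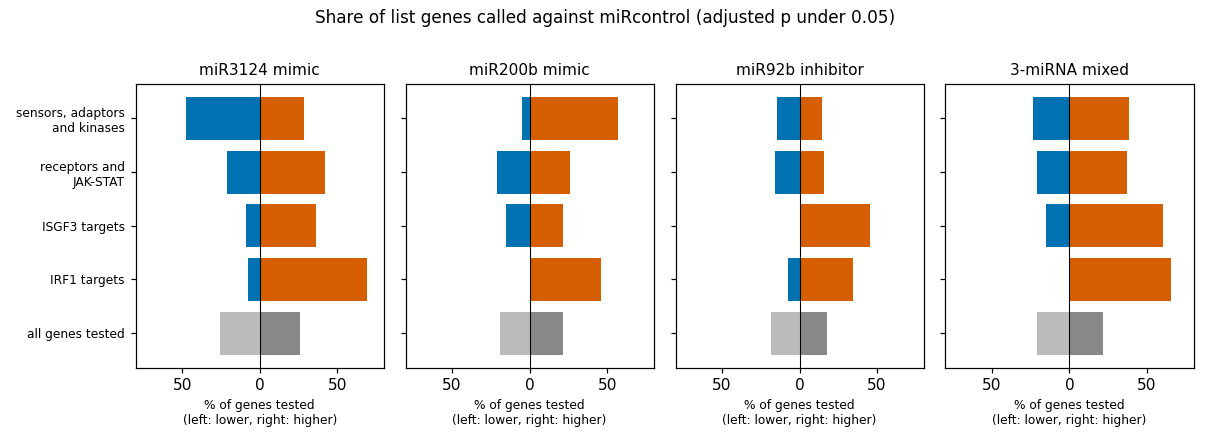
Share of the tested genes of 4 pathway lists called higher (to the right) or lower (to the left) than miRcontrol at an adjusted p under 0.05, in each of the 4 other groups, with the share of all genes tested in grey. The horizontal axis is in percent of the genes tested. For the miR-92b inhibitor no ISGF3 target lay to the left, and 15 of 33 lay to the right, where 17.5% of all genes were higher.

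The promoter of IRF1 and that of IRF9 are shown because both genes were called higher in several groups. RefSeq windows of 250 bases before to 50 after the start (GRCh38.p14) were given for 4 of the 7 genes, ZBED2, IRF1, IRF5 (4 windows) and IRF9. The interferon-stimulated response element word, a pair of GAAA words with any 2 bases between them, searched on both strands, was in none of them and in 3.57% of 35116 promoters. The STAT dimer word TTCNNNGAA, which was chosen after the values were seen, was in 7.66% of promoters. It was found in IRF1, 124 bases before the start (window chr5:132490724-132491023), and in IRF9, 63 bases before the start (window chr14:24161015-24161314), and not in ZBED2 or IRF5. The word is in capitals.
IRF1: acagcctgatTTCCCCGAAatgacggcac
IRF9: accacgtgatTTCTGGGAAaaggccctcc
Neither window holds the GAAA pair, so the words do not overlap one.

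For each interferon regulatory factor, the genes with the most similar pattern over the 10 libraries were also listed, as a description. They were FBXO28 (r = 0.969) and KDM6A (r = 0.963) for IRF1, PPP6C (r = 0.958) and IFIT3 (r = 0.953) for IRF2, and ZDHHC12 (r = 0.982) and CAMSAP3 (r = 0.976) for IRF3. For IRF5 they were SYTL2 (r = 0.936) and TMPRSS15 (r = 0.919), and for IRF9 MRPS27 (r = 0.976) and IFI6 (r = 0.962). For IRF7, DPH1 (r = 0.856) was among them. IFIT3 and IFI6 were the only genes of the ISGF3 target list among those named.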

How the data were processed

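Messenger RNA from BEAS2B cells was sequenced (poly(A) selection, stranded kit, paired-end) in 5 groups of 2 libraries. Per the study's methods and the labels, the authors checked and trimmed reads (FastQC, FASTX_Trimmer, BBMap) and mapped them with TopHat to GRCh38. The counting tool, its strand setting and the annotation were not given in the sources used here. The deposited values are raw counts per gene symbol, before any normalization by the authors; the FPKM values and geometric normalization that the methods name were not used here. A file has 58173 rows; 5771 of them carry a symbol already listed, and the counts of such rows were summed.

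From these counts, genes were filtered with filterByExpr (14884 tested), scaled by RLE and tested with the quasi-likelihood functions of edgeR 4.0.16 (limma 3.58.1, R 4.3.3), all 10 libraries sharing 1 fit with no covariate. The study's methods name edgeR with geometric normalization. p-values were adjusted by Benjamini-Hochberg over all genes tested, two-sided. A group with at most 3 counts in each library was treated as at the floor. Counting limits cover counting error only. In simulated counts with 200 changed genes per comparison, 65 to 66 of 66 genes with a log2 change of 2, 58 to 61 of 67 with a change of 1 and 44 to 52 of 67 with a change of 0.5 were recovered, and 4 to 13 unchanged genes were called. Within groups, the 2 libraries differed by more than sampling noise (chi-square per degree of freedom 1.76 to 2.67).

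The genes and lists were chosen with earlier results of these data known. From lists of more than 8 genes, the genes named were drawn from the 2 largest rises and 2 largest falls per comparison with miRcontrol among called genes with a mean CPM of at least 1, not all of which are given; the interferon genes, genes with several rows, GBP1, STAT2 and ISG15 were named beyond that rule after their values were seen, and TTCNNNGAA was added after the values were seen. Likeness was Pearson's r of log2 CPM with a prior count of 2. Alternatives were TMM, library totals, DESeq2 1.42.0, edgeR's exact test, only the groups compared, no filter, a minimum of 10 counts per library, the replicate number as a block, and leaving out single libraries. Protein sequences were not used here, and some genes are not reported here.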

Additional observations from a re-analysis of the deposited data

How the results depend on the processing

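Of 440 recomputed counts and levels, 429 kept within 1.5 times of their value (counts) or within 1 SD (ZBED2 levels). Of 744 recomputed log2 fold changes of the 6 factors, 696 kept direction and side of the threshold, 23 lost the call, 8 gained it and 17 changed sign. The 1 SD rule could hardly fail when a library was left out, as each of 2 libraries lies within 1 SD of their mean. Most left-out libraries belonged to groups outside a given comparison, so these totals are no measure of robustness. Replicate numbers showed no pairing of libraries (correlation of deviations -0.0359 to 0.0493 over 12900 genes). With the replicate block the factors called were 4, 3, 4 and 4 in the comparisons with miRcontrol, as without it. The shares of all genes called were then 51.1%, 40.6%, 35.9% and 42.8%. The ISGF3 targets called with the miR-92b inhibitor were 16 under that block.

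With DESeq2, 1 factor was called between mixture and miR-92b inhibitor, where 31.4% of the genes given an adjusted p were called. It called 7 ISGF3 targets with the miR-200b-3p mimic (33.1% of such genes) and 9 with the miR-92b inhibitor (31.3%). Leaving out 1 library at a time gave 2 to 4 factors called between mixture and miR-3124-5p mimic, 1 to 3 between mixture and miR-92b inhibitor, 7 to 12 ISGF3 targets with the miR-200b-3p mimic, 8 to 15 with the miR-92b inhibitor, and 7 to 11 IRF1 targets with the miR-92b inhibitor. These low values came without miR-3124-5p mimic replicate 1, without miR-92b inhibitor replicate 1 or mixture replicate 2, without miRcontrol replicate 1, without miR-92b inhibitor replicate 2, and without either miRcontrol library or miR-92b inhibitor replicate 2, in that order. The cause was not tested.

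No value that changed sign was called in either form. Against the miR-92b inhibitor in the mixture, IRF5 turned to 0.000708 (TMM), 0.00597 (library totals), 0.00940 (only the groups compared) and 0.00473 (at least 10 counts), and IRF2 to 0.000467 (only the groups compared). Without single libraries, the ranges that crossed 0 in the mixture were -0.0736 to 0.0565 (IRF2), -0.0739 to 0.0694 (IRF5) and -0.12 to 1.21 (IRF7) against the miR-92b inhibitor, -0.28 to 0.10 (IRF5) against the miR-200b-3p mimic and -0.11 to 0.99 (IRF7) against miRcontrol. Against miRcontrol they were -0.67 to 0.43 (IRF7) and -0.00885 to 0.23 (IRF9) with the miR-200b-3p mimic and -0.88 to 0.61 (IRF7) with the miR-92b inhibitor.

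IRF5 and IRF7 had under 50 counts in every library, so that small changes in them were not detectable at this depth. Where a library was left out, the remaining one was assumed to vary like the other groups.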
